A study of Mus musculus with 24 samples.

Results

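Milk protein genes were followed across 24 mammary tumors of BALB/c mice. The genes were the 5 caseins (Csn1s1, Csn2, Csn1s2a, Csn1s2b and Csn3), the whey proteins Wap, Lalba and Ltf, and Glycam1 and Btn1a1. They were taken by gene name from the probes of an Agilent mouse array that are not controls, which gave 15 probes of 39429 and 10 genes of 30119. Of these probes, 11 passed the filter on low signal, and each of the 10 genes had at least 1 probe that passed, so that all 10 were among the 20944 genes tested.

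All mice were female BALB/c that had received 7,12-dimethylbenz[a]anthracene (DMBA), a chemical carcinogen, by mouth during puberty, and no tumor-free mammary gland was analysed here. Diets were a low-fat diet (LFD), a high-fat diet based on saturated fat of animals (HFD), or a switch from one to the other in adulthood, LFD-HFD and HFD-LFD, where the first diet covered puberty. With the onset that the labels give, the tumors formed 6 groups: 5 LFD late, 3 HFD early, 6 HFD late, 4 LFD-HFD late, 3 HFD-LFD early and 3 HFD-LFD late, so that early tumors came only from mice fed HFD in puberty. Each tumor was hybridised on its own array beside a universal mouse reference RNA, and values are log2 ratios of tumor to reference. The labels do not say whether tumors of a group came from different mice, so the spread between tumors may hold more than 1 source.

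The sample labels put tumor RNA in cyanine 5, whereas the study's methods put the reference there, and the direction used here follows the labels. The reference was the same on every array, and its channel should thus vary least: over 27286 probes the SD had a median of 0.55 in cyanine 5 and of 0.21 in cyanine 3, in log2 units. On 7 of 24 arrays the cyanine 5 signal was lost over a block of rows at an edge, 20.6% to 24.8% of spots, and values from these rows were left out. Csn2, Csn3, Csn1s2a, Wap and Ltf have no value on 4 arrays for this reason, and Csn1s1 and Glycam1 on 3. Tumor RNA gave a signal well above background for 66.1% to 89.2% of the probes on an array. A bulk value does not separate fewer milk-producing cells in a tumor from less RNA per cell.

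Caseins carry most of the protein of milk as micelles, which Csn3 (kappa-casein) keeps in solution. Wap and Lalba belong to the whey, and Lalba is the subunit of lactose synthase that makes the enzyme produce lactose. In the mammary gland these genes are switched on during pregnancy and lactation, when prolactin binds its receptor Prlr, Jak2 activates Stat5a and Stat5b, and Elf5 directs the secretory alveolar cells. Ltf (lactoferrin) is an iron-binding protein of milk that neutrophil granules also hold, and Glycam1 is made by lymph node venules as well as by mammary epithelium. Btn1a1 (butyrophilin) is a membrane protein of the milk fat globule.

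The casein genes lie side by side. On mm9, the build of the probe positions, the 8 casein probes spanned 250 kb at chr5:88111332-88361508, in the order Csn1s1, Csn2, Csn1s2a, Csn1s2b and Csn3. The other genes are elsewhere: the Wap probe at chr11:6535486-6535509, Lalba at chr15:98310831-98310890, Glycam1 at chr15:103393339-103393398, Ltf at chr9:110942873-110942932 and Btn1a1 at chr13:23549437-23549496. The deposited files give these positions without saying which exon or UTR a probe lies in.

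A RefSeq table of promoters on GRCm38.p6, 250 bases before to 50 bases after the start site, matched 7 of the 10 genes. The letters TTCNNNGAA, the core that Stat5 dimers bind, were in 4 of these 7, namely Csn1s1, Csn2, Csn1s2a and Glycam1, and in 8.3% of 32851 promoters of the table. The motif reads the same on both strands. The letters TTGCNNCAA, searched on both strands, were in 0 of 7 against 2.08% of all, and TATAAA on either strand in 0 of 7 against 13.6%. A match is a description of the letters and not of binding. The 250 bases before the start of Csn1s1 (chr5:87665958-87666207, plus strand), Csn2 (chr5:87699426-87699675, minus strand), Glycam1 (chr15:103565082-103565331, minus strand) and Wap (chr11:6638650-6638899, minus strand) are shown 5′ to 3′, with TTCNNNGAA in capitals. They show where the letters lie in 3 genes and that Wap, which had the highest correlation with Csn2 outside the casein cluster, holds none in this window.
Csn1s1: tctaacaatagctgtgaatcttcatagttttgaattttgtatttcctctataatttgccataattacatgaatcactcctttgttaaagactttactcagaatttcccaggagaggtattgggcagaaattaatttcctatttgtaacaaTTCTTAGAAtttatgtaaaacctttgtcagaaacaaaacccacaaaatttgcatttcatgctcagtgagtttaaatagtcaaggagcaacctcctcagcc
Csn2: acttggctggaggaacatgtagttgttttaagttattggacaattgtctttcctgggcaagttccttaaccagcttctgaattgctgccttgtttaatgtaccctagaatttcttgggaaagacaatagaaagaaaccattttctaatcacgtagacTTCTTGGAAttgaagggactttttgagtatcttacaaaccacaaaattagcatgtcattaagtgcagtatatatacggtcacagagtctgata
Glycam1: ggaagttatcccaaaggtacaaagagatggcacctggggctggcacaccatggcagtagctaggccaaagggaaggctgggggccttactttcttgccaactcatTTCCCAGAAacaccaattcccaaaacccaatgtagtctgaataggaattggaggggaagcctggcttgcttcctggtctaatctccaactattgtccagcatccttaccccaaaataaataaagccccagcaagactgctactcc
Wap: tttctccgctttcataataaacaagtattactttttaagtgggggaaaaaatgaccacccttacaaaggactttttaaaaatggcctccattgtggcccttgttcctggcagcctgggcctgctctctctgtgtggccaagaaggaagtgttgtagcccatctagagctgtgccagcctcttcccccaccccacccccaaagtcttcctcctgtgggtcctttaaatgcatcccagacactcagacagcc

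The letters began 100 bases before the start of Csn1s1, 93 before that of Csn2 and 145 before that of Glycam1, and in Csn1s2a 21 bases after it.

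Among these tumors the milk genes were some of the most variable genes measured. Ranked by SD of the log2 ratio over arrays, Csn2 was gene 7 of 20944 with an SD of 3.10 and Csn1s2a gene 8 with 3.07. The next were Csn1s1 at 56, Lalba at 84, Wap at 93, Glycam1 at 120, Csn3 at 136, Ltf at 166 and Csn1s2b at 238, while the median gene had an SD of 0.39. Btn1a1 stood apart at rank 14530 with an SD of 0.30.

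Csn2 (beta-casein) ran from -0.99 to 8.89 over 20 tumors. In HFD early it was 6.71, -0.03 and -0.30, and in HFD-LFD early 1.52, 1.28 and 0.96. In HFD late it was 8.89, 3.57, 4.10 and -0.48, in HFD-LFD late 6.61, 1.88 and 4.63, in LFD late 2.61, -0.29, 8.84 and -0.54, and in LFD-HFD late 7.99, 7.52 and -0.99. Every group but HFD-LFD early held both a tumor above 4 and one below 3, and the groups overlapped. Of the early tumors, HFD early 1 lay at 6.71 and the other 5 between -0.30 and 1.52. Csn1s2a, a neighbouring casein, ran from -1.32 to 8.27 and was highest in LFD late 3, at 8.27, followed by LFD-HFD late 2 at 7.94. Csn1s1 (alpha-S1-casein) ran from -0.55 to 7.62 over 21 tumors, with the highest values in HFD late 1, LFD late 3 at 7.36 and HFD early 1 at 7.19.

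Wap (whey acidic protein) was above the reference in few tumors. Its log2 ratio was 4.58 and 4.09 in LFD-HFD late 2 and 3, 4.31 in LFD late 3, 4.08 in HFD late 1, 2.73 in HFD early 1, 2.64 in HFD-LFD late 1 and 0.33 in HFD-LFD late 3. In the remaining tumors with a value it lay between -1.60 and -0.11. Lalba (alpha-lactalbumin) ran from -0.22 to 6.47 over 24 tumors, highest in LFD-HFD late 2, HFD late 1 at 6.35 and LFD late 3 at 6.32. Glycam1 ran from -0.81 to 5.26 over 21 tumors, with the highest ratio in HFD early 1 but the highest tumor signal in HFD late 1. Csn1s2b stayed below 1 in 18 tumors and exceeded 4 in 3, at 5.37 in HFD late 1 and at 4.82 and 4.60 in LFD-HFD late 2 and 3.

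Taken tumor by tumor, the genes were high together. A log2 ratio over 4 was reached by 8 of 10 genes in HFD late 1 and in LFD-HFD late 3, by 7 of 10 in LFD late 3, by 7 of the 8 measured in LFD-HFD late 2, and by 6 of 10 in HFD early 1 and in HFD-LFD late 1. These tumors belonged to every group except HFD-LFD early, whose 3 tumors had no gene over 4. At the other end, HFD late 4 had 9 of 10 genes below 1 and none over 4, with Csn3 at -0.27 and Ltf at -4.35. In the same tumor the luminal keratin Krt8 was at -4.74 and the basal keratin Krt14 at 3.60, the mean of 10 luminal markers was -1.81 against 0.55 to 2.60 in the other tumors, and the mean of 11 squamous markers was 3.44 against at most 1.26. The part of these markers in its milk gene values was not tested.

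**Figure D1:**
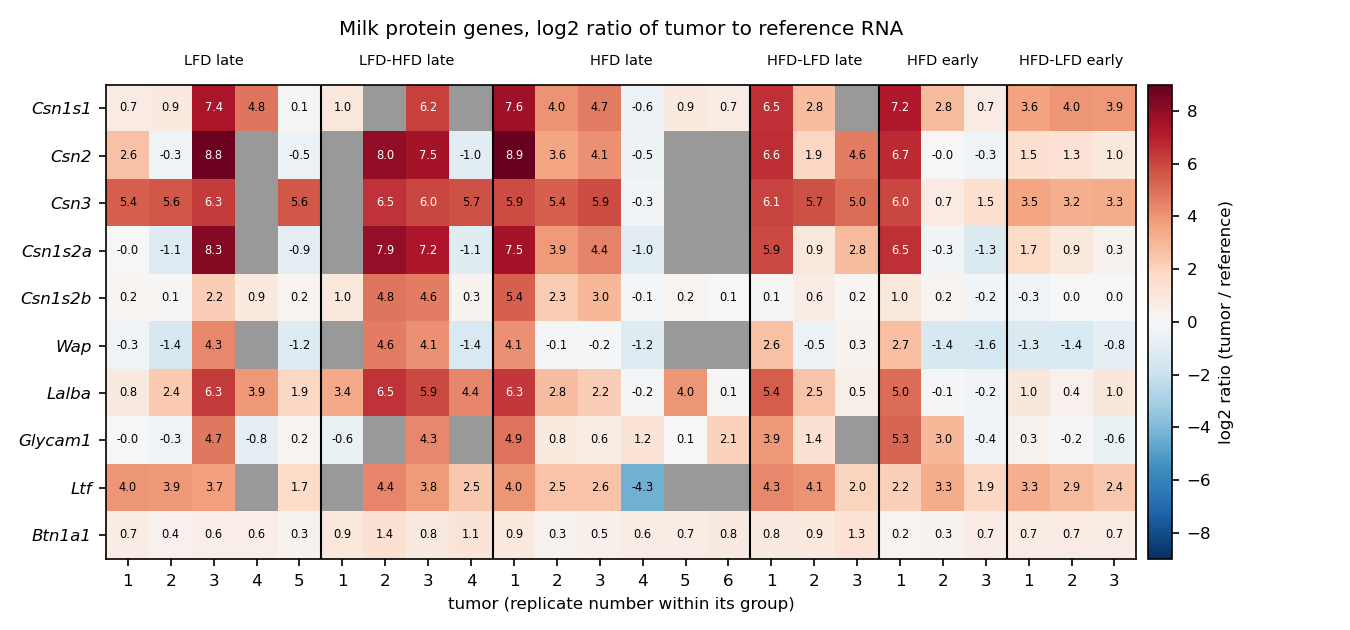
Heat map of the log2 ratio of tumor to reference for the 10 genes (rows) in the 24 tumors (columns, by group and replicate number), with the colour scale in log2 units and grey where the spot lay in rows that lost cyanine 5. HFD late 1, LFD late 3 and LFD-HFD late 2 and 3 are high in nearly all rows but Btn1a1, and the HFD-LFD early tumors have no value over 4.

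Csn3 followed a pattern of its own on the probe used for the gene. In late tumors it was 5.89, 5.39, 5.90 and -0.27 in HFD late, 6.10, 5.72 and 5.05 in HFD-LFD late, 5.36, 5.59, 6.32 and 5.59 in LFD late, and 6.49, 6.03 and 5.74 in LFD-HFD late. In early tumors it was 6.01, 0.74 and 1.51 in HFD and 3.53, 3.25 and 3.34 in HFD-LFD. Thus 13 of 14 late tumors lay between 5.05 and 6.49 and 5 of 6 early tumors between 0.74 and 3.53, and each set had 1 exception: HFD early 1 at 6.01 lay among the late tumors, and HFD late 4 lay below all early tumors. The other Csn3 probes, with little reference signal, did not show this tight late set. They ran from 0.06 to 5.24 and from -0.08 to 1.88 over 18 late tumors. The former had means of 1.02 in HFD-LFD early and 1.15 in HFD-LFD late. LFD late 2 and 5 and LFD-HFD late 4 had Csn3 at 5.59 to 5.74 while their Csn2 was at -0.99 to -0.29. Csn2 was well above background on 3 of 4 LFD late and 2 of 3 LFD-HFD late arrays, so that not all of these low values exceed background.

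In early against late tumors, Csn3 was the only one of the 10 genes that passed an adjusted p of 0.05 (limma, Benjamini-Hochberg over 20944 genes). Its mean was 3.06 in 6 early and 5.35 in 14 late tumors, and the log2 difference of -2.29 (SE 0.78) had an adjusted p of 0.0439. Of all genes tested, 20.5% passed in this comparison, 13.1% lower in early tumors and 7.36% higher, so that 1 of 10 was below that share. The call rested on single tumors: it was lost in 16 of 24 fits that left out 1 tumor and in 10 of 16 other settings, with differences of -2.88 to -1.82 and adjusted p of 0.00115 to 0.134 over the fits without 1 tumor. It held without HFD late 4, where the adjusted p was smallest, without HFD early 1, LFD late 3 or HFD-LFD late 3, and without any of the 4 tumors that have no Csn3 value (HFD late 5 and 6, LFD late 4 and LFD-HFD late 1), and was lost without each of the others. Within the first scan session the difference was -2.22 (adjusted p = 0.309) and within the second -2.58 (adjusted p = 0.00392), and the remaining session held no early tumor. The other Csn3 probes, both with little reference signal, differed by -1.37 (adjusted p = 0.202) and -0.28 (adjusted p = 0.507) over 39429 probes in limma.

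The other genes did not pass in early against late tumors, although 9 of 10 had lower means in early tumors and the median difference was -1.52 against -0.07 over all genes. An unadjusted p under 0.05 was reached by 3 of 10, Csn3, Csn2 and Lalba, and by 36.4% of all genes. In the limma fit Csn2 differed by -2.79 (95% interval -5.53 to -0.04, adjusted p = 0.132) and Lalba by -2.10 (-4.09 to -0.11, adjusted p = 0.117). The intervals of the rest included 0 and were wide: Wap differed by -1.71 (-3.75 to 0.34), Csn1s2a by -2.19 (-5.01 to 0.64), Csn1s2b by -1.33 (-2.83 to 0.17) and Csn1s1 by 0.37 (-2.03 to 2.77). For Glycam1 the difference was -0.27 (-2.26 to 1.72), for Ltf -0.12 (-1.96 to 1.72) and for Btn1a1 -0.20 (-0.49 to 0.08), and the direction of Csn1s1, Glycam1, Ltf and Btn1a1 changed under other settings. Spots of low signal were imputed in these fits on 3 arrays for Csn2, 4 for Csn1s2a and 1 each for Csn1s1 and Wap, and with the normalized values of those spots in place of imputed ones, over 39429 probes, Csn2 differed by -2.19 (adjusted p = 0.352).

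**Figure D2:**
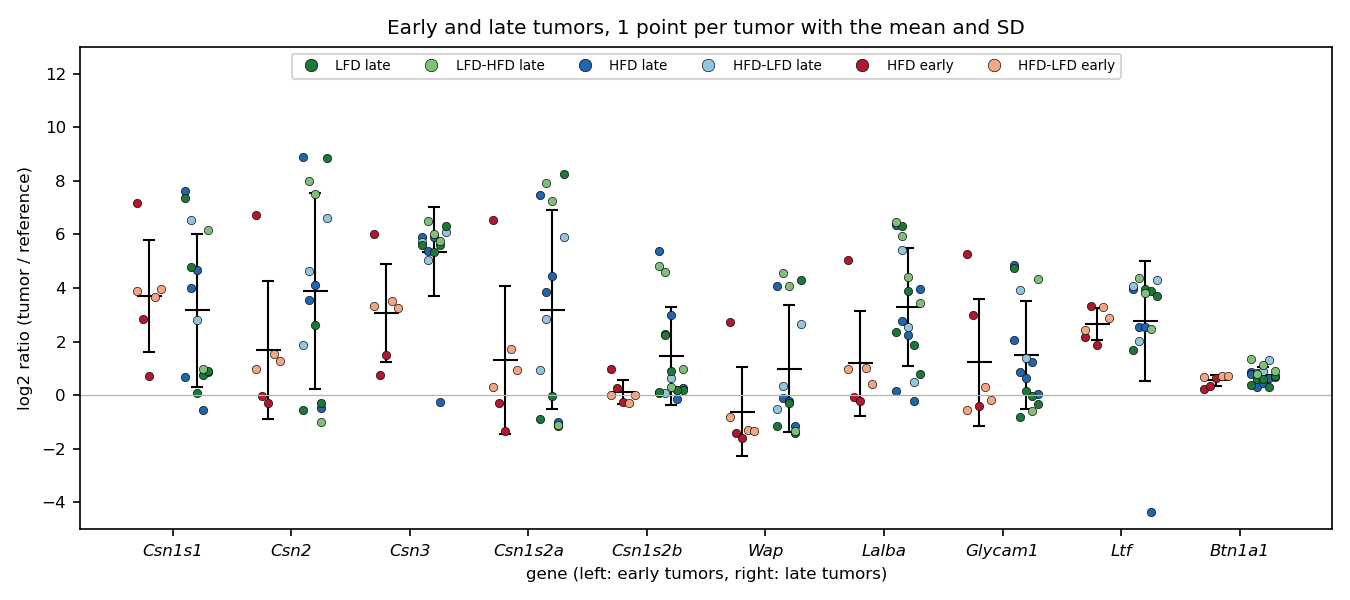
Log2 ratio of tumor to reference (y axis) for each of the 10 genes (x axis), with early tumors at the left and late tumors at the right of each gene, 1 point per tumor, colours for the 6 groups, and the mean with SD. Csn3 shows a tight set of late tumors between 5.05 and 6.49 with HFD late 4 at -0.27 below them, while Csn2 spreads from -0.99 to 8.89 among late tumors alone.

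Within one diet no milk gene passed. Early against late within HFD called 0 of 10 genes, against 16.1% of all genes, and 0 reached an unadjusted p under 0.05 against 32.8% of all. Csn3 differed by -1.47 (adjusted p = 0.439 in limma), and by -2.97 without HFD late 4 (adjusted p = 0.0358) and -3.10 without HFD early 1 (adjusted p = 0.111). Within HFD-LFD 0 of 10 passed against 2.4% of all, and 0 reached an unadjusted p under 0.05 against 22.1%. All 10 means were lower in early tumors with a median difference of -2, and Csn3 differed by -2.25 (adjusted p = 0.34). Its other probes differed by -0.13 and 0.26 within HFD-LFD (adjusted p = 0.969 and 0.787 over 39429 probes in limma). The onset changes of the 2 diets were not distinguished for any of the 10 genes, where 0% of all genes passed, and 0 of 10 reached an unadjusted p under 0.05 against 8.98% of all. For Csn3 the changes differed by 0.77 (95% interval -3.13 to 4.68). HFD early and HFD-LFD early tumors were scanned in different sessions, so that scan session and diet cannot be told apart between them. Early and late tumors of a diet also lay on different slides. HFD early was on slide 2 and HFD late on slides 3 and 6. HFD-LFD early was on slide 4 and HFD-LFD late on slides 5 and 7. Slide and onset thus cannot be told apart within either diet.

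Between diets no gene passed either, and the intervals leave room for large differences. HFD (3 early and 6 late tumors) against LFD (5 late tumors) called 0 of 10 and 0% of all genes, and none of the 10 reached an unadjusted p under 0.05 against 3.74% of all. Csn2 differed by 0.08 (-4.35 to 4.51) and Csn3 by -2.12 (-4.95 to 0.71). Among late tumors, HFD against LFD called 0 of 10 and 0% of all genes, and 0 of 10 had an unadjusted p under 0.05 against 7.82%, with Csn2 at 1.07 (-3.22 to 5.35) in the limma fit. LFD-HFD against LFD called 0 of 10 against 1.56% of all (unadjusted, 1 against 19.1%), with all 10 means higher in LFD-HFD and a median difference of 1.44 against 0.02 over all genes. In the same comparison all 11 squamous markers had lower means (median -1.67) and all 7 adipocyte (1.77) and 8 hormone-sensing luminal markers (1.07) higher ones, with 0 of each list called, and their part in the milk gene values was not tested. There Csn1s2a differed by 3.78 (-0.77 to 8.32) and Csn2 by 2.79 (-1.84 to 7.42). With the normalized values of low-signal spots in place of imputed ones, over 39429 probes, they differed by 3.14 and 2.19. Late HFD-LFD against LFD called 0 of 10 against 1.84% (unadjusted, 1 against 16%), with a median difference of 0.32. These late comparisons share the same 5 LFD tumors and are not independent of each other. LFD late 1, 2, 3 and 5 were scanned in session 1 and LFD late 4 in session 3. All LFD-HFD and late HFD-LFD tumors were scanned in session 2 or 3. Csn2, Csn1s2a, Csn3, Wap and Ltf have no value in LFD late 4. For these genes scan session and diet thus cannot be told apart in LFD-HFD or late HFD-LFD against LFD. For the other genes only LFD late 4 shared a session with those tumors.

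In the prolactin pathway several genes were lower in early tumors. Of its 16 genes, 5 were lower in early tumors and 0 higher, with a median difference of -0.58, where 13.1% of all genes were lower. Prlr, the prolactin receptor, fell by 3.84 (SE 0.85, adjusted p = 0.00361 in limma). Its values were 3.00, -0.88 and -0.77 in HFD early and -0.36, 0.26 and -0.48 in HFD-LFD early, and from -0.35 to 6.43 over the 18 late tumors. The early tumor with high Prlr was HFD early 1, which also had high casein values, and the late tumor at the lower end was HFD late 6. Stat5a fell by 1.81 (adjusted p = 0.0092) and Stat5b by 0.88 (adjusted p = 0.00541), both transducers of the prolactin signal. Over 16 other settings the Stat5a call was lost in 5 (adjusted p up to 0.436), the Stat5b call in 3 (up to 0.477) and the Prlr call in 2 (up to 0.236), and all 3 held in each of 24 fits without 1 tumor. Cish, a Stat5 target that damps the signal, fell by 0.99 (adjusted p = 0.00661), and Tnfsf11, the RANK ligand, by 1.83 (adjusted p = 0.0258).

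Elf5, the alveolar transcription factor, differed by -0.91 (adjusted p = 0.169 in limma) and Jak2 by -0.45 (adjusted p = 0.293). Esr1, the estrogen receptor, fell by 1.16 (adjusted p = 0.0379), a call lost in 5 of 16 settings and 6 of 24 fits without 1 tumor (adjusted p up to 0.0817 in the latter). Krt8 differed by -1.84 (adjusted p = 0.0996) and Krt14 by 1.15 (adjusted p = 0.2). Of the hormone-sensing luminal markers 5 of 8 were lower, with group ranges of their mean of -0.72 to 1.05 in HFD early, -0.69 to -0.03 in HFD-LFD early, -0.73 to 2.67 in HFD late, -0.47 to 2.97 in LFD late, 0.49 to 2.31 in HFD-LFD late and 2.26 to 3.14 in LFD-HFD late, so that some late tumors were as low as early ones. Of 10 luminal markers 1 was lower, Krt19, where 13.1% of all genes were lower. Of 10 basal and myoepithelial markers 5 were lower, led by the smooth muscle myosin Myh11, which fell by 2.99 (adjusted p = 0.00356 in limma). The 5 were the contractile genes Acta2, Myh11, Mylk, Cnn1 and Tagln, while the basal genes Krt5, Krt14, Krt17 and Trp63 differed by 0.42, 1.15, 0.61 and 0.48 and did not pass. Of 11 squamous markers 0 passed, while all 11 means were higher in early tumors with a median difference of 1.37. These lists moved with onset beside Csn3, and their part in its difference was not tested.

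**Figure D3:**
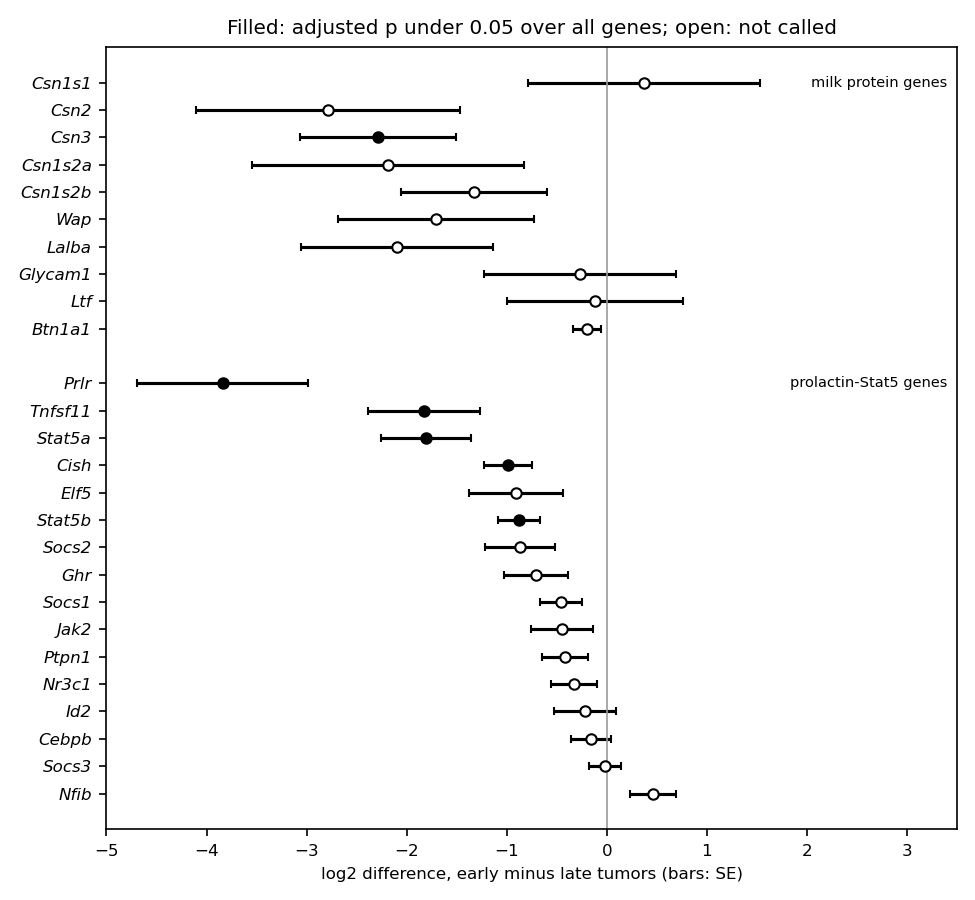
Log2 difference of early minus late tumors (x axis, bars are SE) for the 10 milk genes and the 16 genes of the prolactin-Stat5 list (y axis), with filled points where the adjusted p over all genes was under 0.05. Csn3 is the only filled milk gene, beside 5 filled pathway genes that include Prlr at -3.84.

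Across tumors, most milk genes rose and fell with Csn2. Over the tumors measured for both genes, the Pearson correlation with Csn2 was 0.98 for Csn1s2a and 0.96 for Wap (n = 20 each), with Spearman 0.95 and 0.90, and 0.90 for Csn1s1 (n = 17, Spearman 0.91). Each of these had a permutation p of 1e-05, the smallest that 100000 resamples can give, and an adjusted p of 6.33e-05 over 19 pairs. Whether Csn2 values form clusters was not tested. Their widest gap, from 4.63 to 6.61, was 20% of the range, and the tumors beyond it were those with 6 to 8 genes over 4. Correlations were 0.83 for Glycam1 (n = 17, Spearman 0.71, adjusted permutation p = 0.000475), 0.79 for Lalba (Spearman 0.69, adjusted permutation p = 0.00038) and 0.75 for Csn1s2b (Spearman 0.66, adjusted permutation p = 0.000475). Without the 2 tumors farthest from the median of Csn2 the values for these 6 genes were 0.70 to 0.97.

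Correlations with Csn2 were lower for Csn3, Ltf and Btn1a1. Csn3 had a correlation of 0.61 (Spearman 0.69, adjusted permutation p = 0.0083), and 0.46 in late tumors (n = 14, adjusted permutation p = 0.0525). Ltf had 0.42 (Spearman 0.53, adjusted permutation p = 0.0718) and Btn1a1 0.25 (Spearman 0.26, adjusted permutation p = 0.377). Within the first scan session, with 11 tumors, Csn1s2a had 0.98, Wap 0.97, Lalba 0.91 and Csn3 0.62. Within the second, with 6 tumors, they had 0.99, 0.99, 0.97 and 0.81. In that session, without the 2 tumors farthest from the median of Csn2, the value was 0.55 for Csn1s2a and 0.35 for Wap, and for Csn1s1 it went from 0.91 to -0.87, so that these values rested on 2 tumors. The last session had at most 3 tumors with values.

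Of the regulators, Elf5 and, over all tumors, Stat5a varied with Csn2, and for Prlr no relation was detected. The correlation of Csn2 with Elf5 was 0.73 (n = 20, Spearman 0.74, adjusted permutation p = 0.000651), 0.66 in late tumors alone (adjusted permutation p = 0.00688), and 0.68 without the 2 tumors of most extreme Csn2. Within the first scan session it was 0.75 (n = 11, adjusted permutation p = 0.0171). Within the second it was 0.80 (n = 6, adjusted p = 0.138 by exact permutation) and 0.31 without the 2 farthest tumors. Stat5a had 0.57 (n = 17, Spearman 0.63, adjusted permutation p = 0.0341), but 0.35 in 11 late tumors (adjusted permutation p = 0.37), where the relation was not detected. Its value was 0.56 without HFD late 4 (adjusted permutation p = 0.0586) and 0.67 within the first session (adjusted permutation p = 0.0514). Prlr had 0.20 (Spearman 0.06, adjusted permutation p = 0.511), Esr1 0.04 and Krt8 0.32. The Prlr value varied with the tumors used. It was -0.32 in late tumors, 0.12 within the first session and 0.70 within the second (n = 6, adjusted p = 0.197 by exact permutation). With spots of low signal left out it was 0.40 (n = 17, adjusted permutation p = 0.193). In LFD-HFD late 4, Prlr was 5.75 and Elf5 3.24 with Csn2 at -0.99, and in LFD late 3 Prlr was 1.93 with Csn2 at 8.84. The Csn2 signal was well above background on 2 of 3 LFD-HFD late arrays, and the lowest value, -0.99, is near background.

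**Figure D4:**
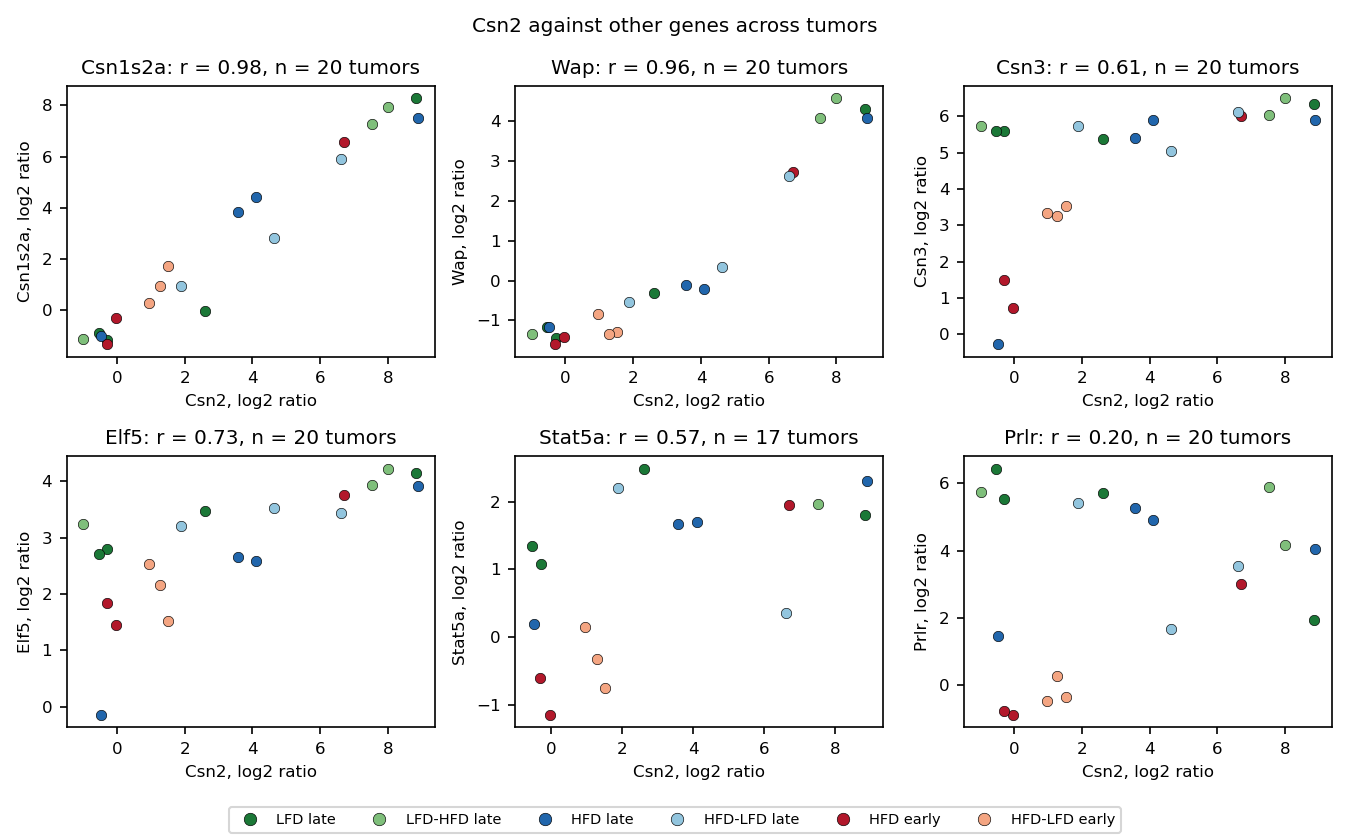
Log2 ratio of Csn2 (x axis) against that of Csn1s2a, Wap, Csn3, Elf5, Stat5a and Prlr (y axes), 1 point per tumor with colours for the 6 groups and Pearson's r in each title. Csn1s2a and Wap follow Csn2 closely (0.98 and 0.96), Csn3 lies between 5.05 and 6.49 in 13 of 14 late tumors at any Csn2 level, and Prlr is spread widely at each level of Csn2 (0.20).

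Outside the list, the genes whose log2 ratios were most like those of the milk genes over the arrays measured are given as a description. Lao1, an amino acid oxidase secreted into mouse milk, was nearest to Csn2 (r = 0.914, n = 20), Csn1s2a (0.898) and Wap (0.949). Timd2, a ferritin receptor, had 0.901 with Csn2. Lalba was nearest to Xbp1, a transcription factor of secretory cells (0.935, n = 21), and Glycam1 had Xdh, an enzyme of the milk fat globule, and Cel, the bile salt-stimulated lipase, among its 3 nearest at 0.742 and 0.745. Csn3 had other neighbours, Syne4 at 0.956 (a nuclear envelope protein), Ano1 at 0.936 (a chloride channel) and Smim22 at 0.928. For Ltf they were the tight junction gene Cldn3 at 0.870, Wfdc18 at 0.853 and Eya2 at 0.844, and Cldn3 shares the low value of HFD late 4, at -3.37.

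Ltf is also a neutrophil granule gene, and no relation with Camp, Ngp or S100a8 was detected. Ltf was 2.16, 3.34 and 1.88 in HFD early, 3.30, 2.88 and 2.42 in HFD-LFD early, and from 1.67 to 4.37 in late tumors other than HFD late 4. Camp, Ngp and S100a8, made by neutrophils and their precursors, had correlations with Ltf of -0.06, -0.06 and -0.27 (n = 20, adjusted permutation p = 0.851, 0.851 and 0.341), and Lcn2, which mammary epithelium makes too, had 0.75 (n = 17, Spearman 0.59, adjusted permutation p = 0.00712). Without HFD late 4 the value for Lcn2 was 0.41 (adjusted permutation p = 0.195), so that it rested on this tumor. Of 11 neutrophil granule genes tested, Ltf among them, 4 were lower in early tumors, against 13.1% of all genes. Means were lower for 9 and higher for 2, S100a8 by 2.11 and S100a9 by 2.44 (adjusted p = 0.201 and 0.139 in limma). The mean of the 10 without Ltf lay between -3.71 and 0.35 over all tumors. For Glycam1, the B cell gene Cd79a had a correlation of -0.09 (n = 21, adjusted permutation p = 0.846). Of 9 lymph node and B cell genes tested, Glycam1 among them, 2 were lower in early tumors, against 13.1% of all genes. The mean of the 8 without Glycam1 lay between -1.16 and 0.41. Ccl21a had no probe that passed the filter.

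The reference channel was not constant over arrays, and it was raised for several of these genes on the array of HFD late 1. On the array of HFD late 1 the Wap probe had a cyanine 3 signal of 6740 against a median of 166 over arrays, 40.7-fold, and the second Wap probe 6650 against 92.1, 72.2-fold. For Glycam1 it was 4230 against 52.1, 81.2-fold, and for Csn1s1 10.1-fold. The tumor signal of Wap and Glycam1 was also highest on this array, although other tumors had higher ratios. The Csn3 probe used had its highest reference signal, 2170 against a median of 752, on the array of HFD-LFD late 1. No spot of the 15 probes was saturated. The ratio divides by this channel, and the cyanine 5 channel alone, quantile normalized, ran over 11.47 log2 units for Csn1s1 against 8.17 for the ratio. The offset of 50 added before the logarithm also compresses the ratio of dim spots.

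Btn1a1 was nearly flat, between 0.22 and 1.36 over 24 tumors, but its probes did not agree. The probe that passed the filter holds a run of 22 bases of alternating G and T, in capitals in ccagGTGTGTGTGTGTGTGTGTGTGTcttc. A run of alternating G and T, or of A and C, at least as long is in 62 of 39429 probes (0.157%). The Btn1a1 probe with the run had a reference signal of 3400 to 10100 on every array. The second probe, at chr13:23555734-23555793, was not well above background in the reference on any array, and its tumor signal ran from 0.496 to 1330 and its log2 ratio from -0.11 to 3.53. In LFD-HFD against LFD the first probe differed by 0.53 (SE 0.15, unadjusted p = 0.00154, adjusted p = 0.0638 in limma), and in late HFD-LFD against LFD by 0.49 (adjusted p = 0.109). How far the repeat contributes to these values was not tested. In both comparisons LFD late 4 was the only LFD tumor that shared a scan session with tumors of the other diet.

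**Figure D5:**
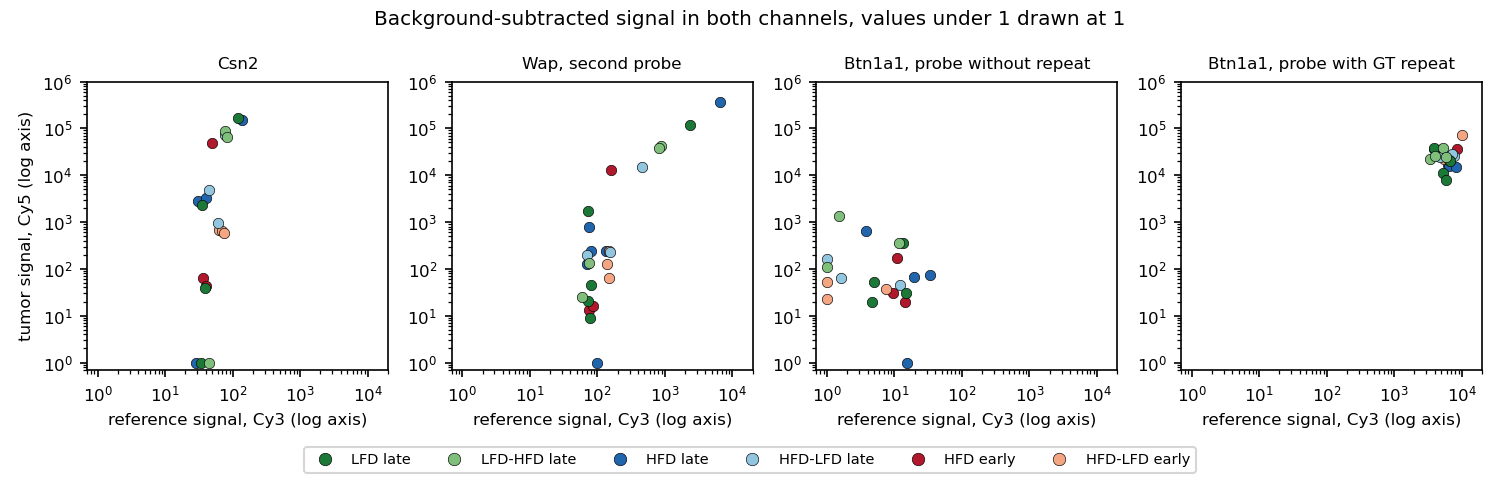
Background-subtracted tumor signal (cyanine 5, y axis) against reference signal (cyanine 3, x axis), both on log axes with values under 1 drawn at 1, for the Csn2 probe, the second Wap probe and both Btn1a1 probes, 1 point per array. The Wap probe reaches a reference signal of 6650 on the array of HFD late 1, and the Btn1a1 probe with the repeat lies between 3400 and 10100 in the reference on every array.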

How the data were processed

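RNA of 24 mammary tumors was measured on Agilent 2-colour arrays against a common reference. As deposited by the authors, the files are scanner output of Agilent Feature Extraction (8.5.1.1 per the labels, 11.0.1.1 per the file headers). Their intensity values are mean spot and median background brightness per dye and a background-subtracted signal, without normalization between arrays, and the log10 values deposited are the scanner software's dye-normalized ratios of Cy5 to Cy3. Probe positions are on mm9. The normalization, filter and imputation of the study's methods are not in these files and were run here.

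The analysis was run on the log2 scale (limma 3.58.1, R 4.3.3): normexp with an offset of 50, loess within arrays, spots of 1 probe averaged, and the 27286 probes kept whose signal in each dye exceeded 10 on 80% of arrays or more. Spots of low signal or with an outlier flag were imputed from the 10 nearest probes. Rows that had lost Cy5 on 7 arrays were given weight 0 and left missing. They were bands of 10 rows that lay over 0.5 log2 units below the array's median and ran to an edge. A gene was represented by its brightest probe on average. Values given for single tumors were not imputed. Of 39429 probes, 31375 were named through a RefSeq table.

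Groups follow diet and onset as labelled. Each comparison was a limma fit with Benjamini-Hochberg adjustment over 20944 genes: early against late over 24 arrays, HFD against LFD over 14, and 6 contrasts of group means. Correlations used 100000 permutations, or exact permutation tests with under 10 tumors. The members and the 12 gene lists were chosen with earlier results of these data known. The text names the 10 members, a fixed set of regulators and markers, the leading genes of each list by p in early against late tumors, and the 3 genes most correlated with each member. Of the prolactin pathway, Cish and Tnfsf11 are given because they passed, and Lcn2 because its correlation with Ltf was among those planned.

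Alternatives were the scanner's log ratio, median centring, no background correction, the tumor channel on its own, dimmed rows kept or imputed, no filter, no imputation, the mean of probes, array weights, slide or scan session as a block, the 7 arrays left out, and each array left out in turn. Single probes, single scan sessions and 2 settings of the correlations were added after the data had been seen. On simulated data with 200 of 20944 genes changed by 2 log2 units, early against late recovered 95.5% of random genes and 1% of genes with a spread over 1.5 log2 units. The real comparison called 4288 genes, so that the adjusted cutoff was stricter in the simulation and these shares do not carry over to it. Precision is limited by how many arrays there are. Histology of single tumors was not analysed here.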

Additional observations from a re-analysis of the deposited data

Results flagged for a closer look

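Of 33 sets of 4 to 10 tumors, 1 for each gene and group tested, 8 held a tumor whose gap to its nearest neighbour was larger than Dixon's test allows at the 95% level, a test that chance alone fails in a small share of sets. The sets share tumors and genes that vary together. In early tumors, HFD early 1 stood above the rest with Csn2 at 6.71 (next 1.52), Wap at 2.73 (next -0.83) and Lalba at 5.04 (next 1). In LFD late, replicate 3 stood above the rest with Csn1s2a at 8.27 (next -0.04) and Glycam1 at 4.73 (next 0.16). In HFD late, replicate 4 lay below the rest with Csn3 at -0.27 (next 5.39) and Ltf at -4.35 (next 2.54). In LFD late, replicate 5 lay below the others for Ltf, at 1.67 (next 3.71).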

How the results depend on the processing

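Under other settings the number of milk genes called in early against late tumors was 0 in 9 of 16, 1 in 5 and more in 2. It was 0 with median centring, the tumor channel alone, dimmed rows kept, dimmed rows imputed, no filter on signal, slide as a random or a fixed block, the arrays with dimmed rows left out, and within scan session 1. It was 4 with array weights (Csn3, Csn2, Csn1s2b and Lalba) and 3 within scan session 2 (Csn3, Lalba and Ltf). With each array left out it was 0 to 2 (0 in 16 of 24, and 2 without HFD early replicate 1), while 42 to 7465 genes of all were called under the settings and 2475 to 5250 without 1 array. Within HFD, array weights called 2 and leaving out arrays 0 to 1, the latter without HFD late replicate 4. In LFD-HFD against LFD, array weights called 1, Btn1a1, and leaving out arrays 0 to 1, the latter without LFD late replicate 4 or HFD-LFD late replicate 3. In the other 5 comparisons no setting called a milk gene.

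Of the differences that passed, the direction turned for Camp, which was -1.56 and 0.34 with slide as a fixed block. The other turns were in differences that had not passed. In early against late tumors Csn1s1 was -0.39 with the tumor channel alone, -0.12 and -2.33 with slide as a random and a fixed block, -0.44 with scan session as a block, -0.19 without the arrays with dimmed rows, -1.33 within session 2 and -0.33 to 0.97 without 1 array. Ltf was 0.01 with the scanner's ratio, 0.61 with median centring, 0.07 with the tumor channel alone, 0.47 with dimmed rows kept, 0.22 within session 1 and -0.67 to 0.04 without 1 array. Glycam1 was 1.1 within session 1 and -1.08 to 0.09 without 1 array. Btn1a1 was 0.31 with median centring, which also moved the median of all genes from -0.07 to 0.31, and 0.14 with the tumor channel alone. Elf5 was 0.11 with dimmed rows kept. Csn3 within HFD was 0.10 with dimmed rows kept, and the difference between its onset changes was -1.30 with array weights and -0.85 to 1.78 without 1 array. The cause was not tested. The correlation of Csn2 and Ltf was 0.45 with the tumor channel alone, adjusted p = 0.0417 by permutation. Slide as a fixed block left only slide 4 with both early and late tumors. No paired analysis was possible because each tumor was on its own array and no label pairs tumors.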

Other observations

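Other gene lists gave these counts in early against late tumors in limma, where 13.1% of all genes were lower and 7.36% higher. Of 15 other milk proteins 6 were lower and 0 higher, led by Mfge8, a milk fat globule protein that also marks apoptotic cells for uptake, at -2.60 (adjusted p = 0.00186) and Pigr, the receptor that carries IgA into milk, at -0.58 (adjusted p = 0.00465). Of 19 genes of lactose and milk fat synthesis 1 was lower, Cidea, a lipid droplet protein, at -1.27 (adjusted p = 0.0445). Of 7 adipocyte genes 2 were lower, Lipe at -0.84 (adjusted p = 0.0225) and Plin1 at -1.36 (adjusted p = 0.0478), which act in lipolysis and on the lipid droplet. Of 6 salivary gland genes and of 6 macrophage genes 0 passed in either direction.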
